A study of Caenorhabditis elegans with 2 samples.

Results

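The 6 genes described here encode the vitamin B12-dependent route of propionate breakdown in Caenorhabditis elegans: pcca-1, pccb-1, mce-1, mmcm-1, mmaa-1 and mmab-1. They were taken by name from the Ensembl annotation of the WBcel235 genome (ce11), and are 6 of 19973 protein-coding genes on the 6 chromosomes. Binding of the nuclear hormone receptor NHR-10 at these genes was read from chromatin immunoprecipitation with sequencing (ChIP-seq) of whole L4 larvae, the last larval stage. There was 1 group of 2 biological replicates with 1 technical replicate each: strain OP239, genotype unc-119(ed3) III; wgIs239, in which an inserted transgene supplies NHR-10 fused to eGFP, with both sexes mixed. All lists drew on a single control alignment, and there was no second condition or strain in the data analysed here. The protein profiled is the tagged one made from the transgene, and whole larvae mix all tissues, so binding in the intestine and elsewhere cannot be told apart.

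Propionyl-CoA comes from the breakdown of odd-chain fatty acids and of some branched amino acids. In the route that needs vitamin B12, propionyl-CoA carboxylase makes methylmalonyl-CoA, an epimerase turns this into its other mirror form, and methylmalonyl-CoA mutase converts it to succinyl-CoA for the tricarboxylic acid cycle. The mutase works only with adenosylcobalamin, a form of vitamin B12. When the vitamin is low, worms use a B12-independent propionate shunt, and NHR-10 is known as one of the receptors that turn on shunt genes when propionate persists. The question put to the deposited regions was whether, where and how strongly tagged NHR-10 was recorded beside the genes of the B12-dependent route itself.

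At 1 of the 6 genes, pccb-1, a region of the authors' optimal list, their reproducibility-thresholded list of peaks, had its summit near or inside the gene. The same was true of 9.31% of all protein-coding genes. "Near or inside" means within 5 kb of an annotated transcript start or between the ends of the gene. The other 5 genes had regions only in the longer lists that include background. Ordered by the strongest of these regions, mce-1 and mmcm-1 came next, then pcca-1, mmaa-1 and mmab-1.

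Sequence at the summit of the strongest pooled region is printed for 4 of the genes, and not for mce-1 and mmab-1. Each stretch is 150 bp of the RefSeq WBcel235 genome (plus strand, 5′ to 3′), centred on the summit. Capitals mark a match, on either strand, to TGATAA, the letters of a GATA factor site. The stretches lie at X:3090118-3090267 for pccb-1, III:3908416-3908565 for mmcm-1, X:7661127-7661276 for pcca-1 and II:7105193-7105342 for mmaa-1.
pccb-1: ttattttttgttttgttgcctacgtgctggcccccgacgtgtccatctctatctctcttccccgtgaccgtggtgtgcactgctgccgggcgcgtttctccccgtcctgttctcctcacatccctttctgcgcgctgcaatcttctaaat
mmcm-1: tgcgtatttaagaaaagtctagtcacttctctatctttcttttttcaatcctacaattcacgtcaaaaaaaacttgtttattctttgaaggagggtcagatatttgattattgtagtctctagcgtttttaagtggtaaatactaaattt
pcca-1: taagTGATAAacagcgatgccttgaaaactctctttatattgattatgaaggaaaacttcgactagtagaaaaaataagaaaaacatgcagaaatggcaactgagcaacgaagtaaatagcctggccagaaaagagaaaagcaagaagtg
mmaa-1: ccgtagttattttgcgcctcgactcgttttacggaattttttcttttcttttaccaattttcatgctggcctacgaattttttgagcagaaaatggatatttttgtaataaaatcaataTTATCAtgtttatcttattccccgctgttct

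The pccb-1 stretch was the richest of the 4 in G and C, with a GC content of 54.7%. The other stretches had 29.3% at mmcm-1, 35.3% at pcca-1 and 32.7% at mmaa-1. The strongest stretches that are not printed had 28.7% at mce-1 and 42.7% at mmab-1. The median was 43.3% over optimal regions and 32.7% over protein-coding promoters. Searches on both strands covered TGATAA and, beside it, AGGTCA (the core letters of many nuclear receptor sites) and CACGTG (an E-box). None of these letters occurred in the printed pccb-1 and mmcm-1 stretches, nor at the strongest summits of mce-1 and mmab-1. TGATAA lay 68 bp from the summit at pcca-1 and 47 bp from it at mmaa-1. Among weaker regions of the pooled list, it lay 5 bp from the summit of pccb-1 rank 1715. It lay 34 bp away at mmcm-1 rank 5396, 32 bp at mce-1 rank 12760 and 43 bp at mmaa-1 rank 13514. AGGTCA occurred at weaker pcca-1 regions only, 29 bp from the summit of rank 12099 and 47 bp from that of rank 13634. CACGTG occurred only at mmaa-1 rank 14067, 5 bp from the summit. The remaining pooled regions of these genes held none of these letters. In windows of the same length, TGATAA was present in 19.2% of pooled regions, 25.7% of optimal regions and 17.9% of protein-coding promoters. AGGTCA was present in 4.81% of pooled regions, 4.63% of optimal regions and 4.53% of promoters. CACGTG was present in 4.18% of pooled regions, 10.7% of optimal regions and 3.43% of promoters. A match describes letters only, and its absence says only that these letters are not in the window.

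Each list gives every region a signal value on a scale that the sources used here do not state, so regions were ranked within a list, with rank 1 the strongest. The pooled list, called on both replicates together, held 17447 regions with signals between 15.0 and 333. Its 994 strongest were the optimal list, whose lowest signal was 49.6. The replicate 1 list held 21319 regions and the replicate 2 list 22317. Most regions outside the optimal list are weak: 17.9% of the pooled list, 15.0% of replicate 1 and 15.9% of replicate 2 had a deposited q-value of at most 0.05. The windows of 5 kb covered 94.9% of the 6 chromosomes, so a pooled or replicate region near a gene is common. All 6 genes had one in the pooled list, as did 69.8% of all protein-coding genes, and all 6 had one in both replicate lists, as did 68.4% of all genes.

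Read with the deposited q-value, 3 of the 6 genes (pccb-1, mce-1 and mmcm-1) had a pooled region at a q-value of at most 0.05, against 23.1% of all genes. The promoter window was the 1000 bp before an annotated start and the 200 bp after it. In it 1 of the 6 (pccb-1) had an optimal summit, against 2.82% of all genes. The pccb-1 summit counts only through the downstream of its annotated starts, as it lies 644 bp past the upstream one. In the promoter window 4 of the 6 (pcca-1, pccb-1, mmcm-1 and mmaa-1) had a pooled summit of any q-value, against 28.1% of all genes. Those at pcca-1 and mmaa-1 had q-values above 0.05, with a −log10 q of 1.05 and 0.07. With only 6 genes these counts are descriptions, and no test was made of them.

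**Figure D1:**
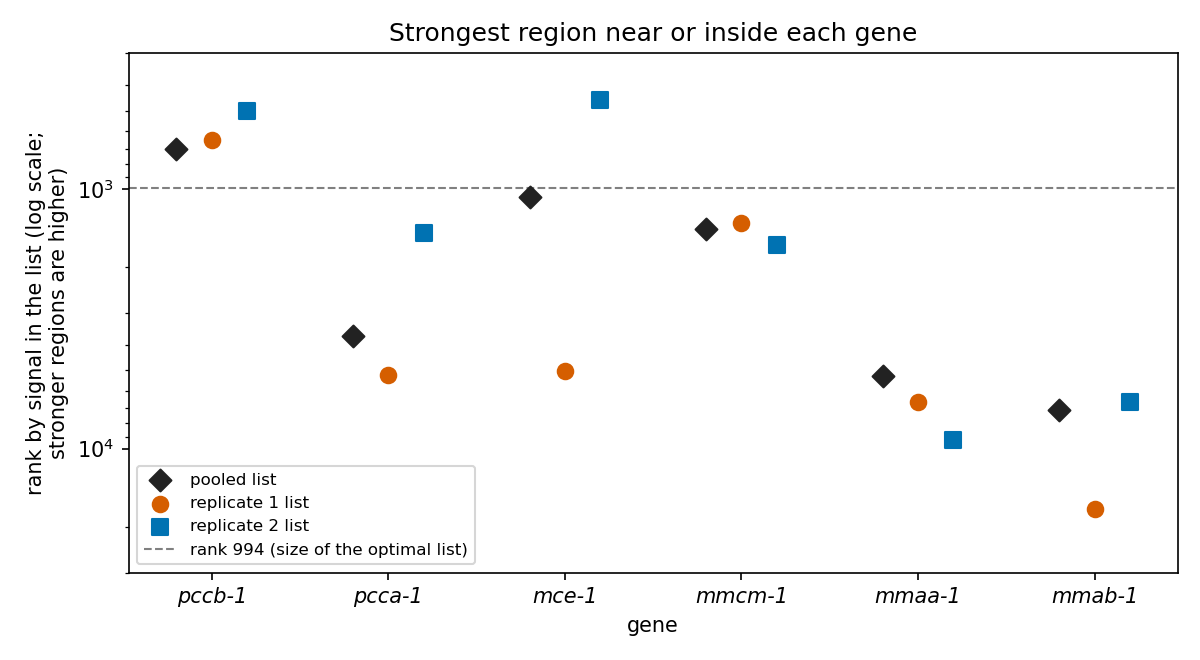
Rank by signal of the strongest region near or inside each of the 6 genes, in the pooled, replicate 1 and replicate 2 lists (log scale, stronger regions higher), with a dashed line at rank 994. Only pccb-1 lies above the line in all 3 lists, and mce-1 lies above it in replicate 2 only.

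The carboxylase has an alpha subunit, encoded by pcca-1, and a beta subunit, encoded by pccb-1. The gene pccb-1 (WBGene00018701) lies at X:3089549-3092437 on the plus strand and has 2 annotated transcript starts 878 bp apart. Its optimal region spans X:3089981-3090404, with a signal of 56.2 and rank 701. The summit is 644 bp downstream of the upstream start and 234 bp upstream of the downstream start, in an intron of the longer transcript. The same region had rank 648 and a signal of 30.7 in replicate 1, and rank 1246 and a signal of 25.9 in replicate 2. The replicate summits lay 1 bp and 6 bp from the pooled one. The summit is therefore upstream of the start of the shorter transcript and inside the gene as the longer transcript defines it. It fell within 5 kb of, or inside, 3 protein-coding genes, and pccb-1 has the nearest start.

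A further pair of overlapping pooled regions sits at the other end of pccb-1. The first, X:3092281-3092704, had rank 1715 and a signal of 40.0. Its summit lies 56 bp past the end of pccb-1, in the 3′ UTR of wrt-2, a hedgehog-related gene that runs toward pccb-1, and 2066 bp from the nearest pccb-1 start. The second, X:3092486-3092909, had rank 5452, a signal of 24.8 and a summit in a coding exon of wrt-2. Their ranks were 500 and 1117 in replicate 2, while in replicate 1 a single region of rank 4749 overlapped both. The replicate 1 summit lay 332 bp and 127 bp from the 2 pooled summits, against 38 bp and 37 bp for the replicate 2 summits. The pooled pair thus ranked far higher in replicate 2, with rank ratios of 9.5 and 4.25, but the replicate 1 region was centred elsewhere. Of the pooled regions of like rank found in both replicates, 14.2% and 14.8% were at least as unequal. The intronic region ranked higher in replicate 1, by a ratio of only 1.92, and 65.3% of its like regions were at least as unequal. The start nearest to both regions at the 3′ end is that of wrt-2.

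Among the 994 strongest regions of replicate 1, 1 of the 6 genes (pccb-1) had a summit near or inside it, against 9.34% of all genes. Among the 994 strongest of replicate 2, 2 of the 6 (pccb-1 and mce-1) did, against 8.97% of all genes. The only gene of the 6 counted in both was pccb-1, against 5.82% of all genes, but through the intronic region in replicate 1 and the region past its 3′ end in replicate 2. When the same region had to be among the 994 strongest in both replicates, a condition added after the data were seen, the count was 0 of the 6, against 5.23% of all genes.

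The gene with the alpha subunit, pcca-1 (WBGene00017864, X:7657542-7660986, minus strand), had no optimal region, and its nearest optimal summit was 153853 bp upstream. Its strongest pooled region, X:7660990-7661413, had rank 3682, a signal of 29.2 and a −log10 q of 1.05. The summit lies 216 bp upstream of the start, between pcca-1 and dhs-29. Replicate 2 placed a region of rank 1482 and signal 24.3 within 1 bp of this summit. The overlapping region of replicate 1 had rank 5199 and a signal of 14.3, with a summit 337 bp away. So pcca-1 had a summit close to its start that was supported mainly by replicate 2. The other 4 pooled regions of pcca-1 had ranks between 11382 and 15789, and each was found in 1 replicate only.

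**Figure D2:**
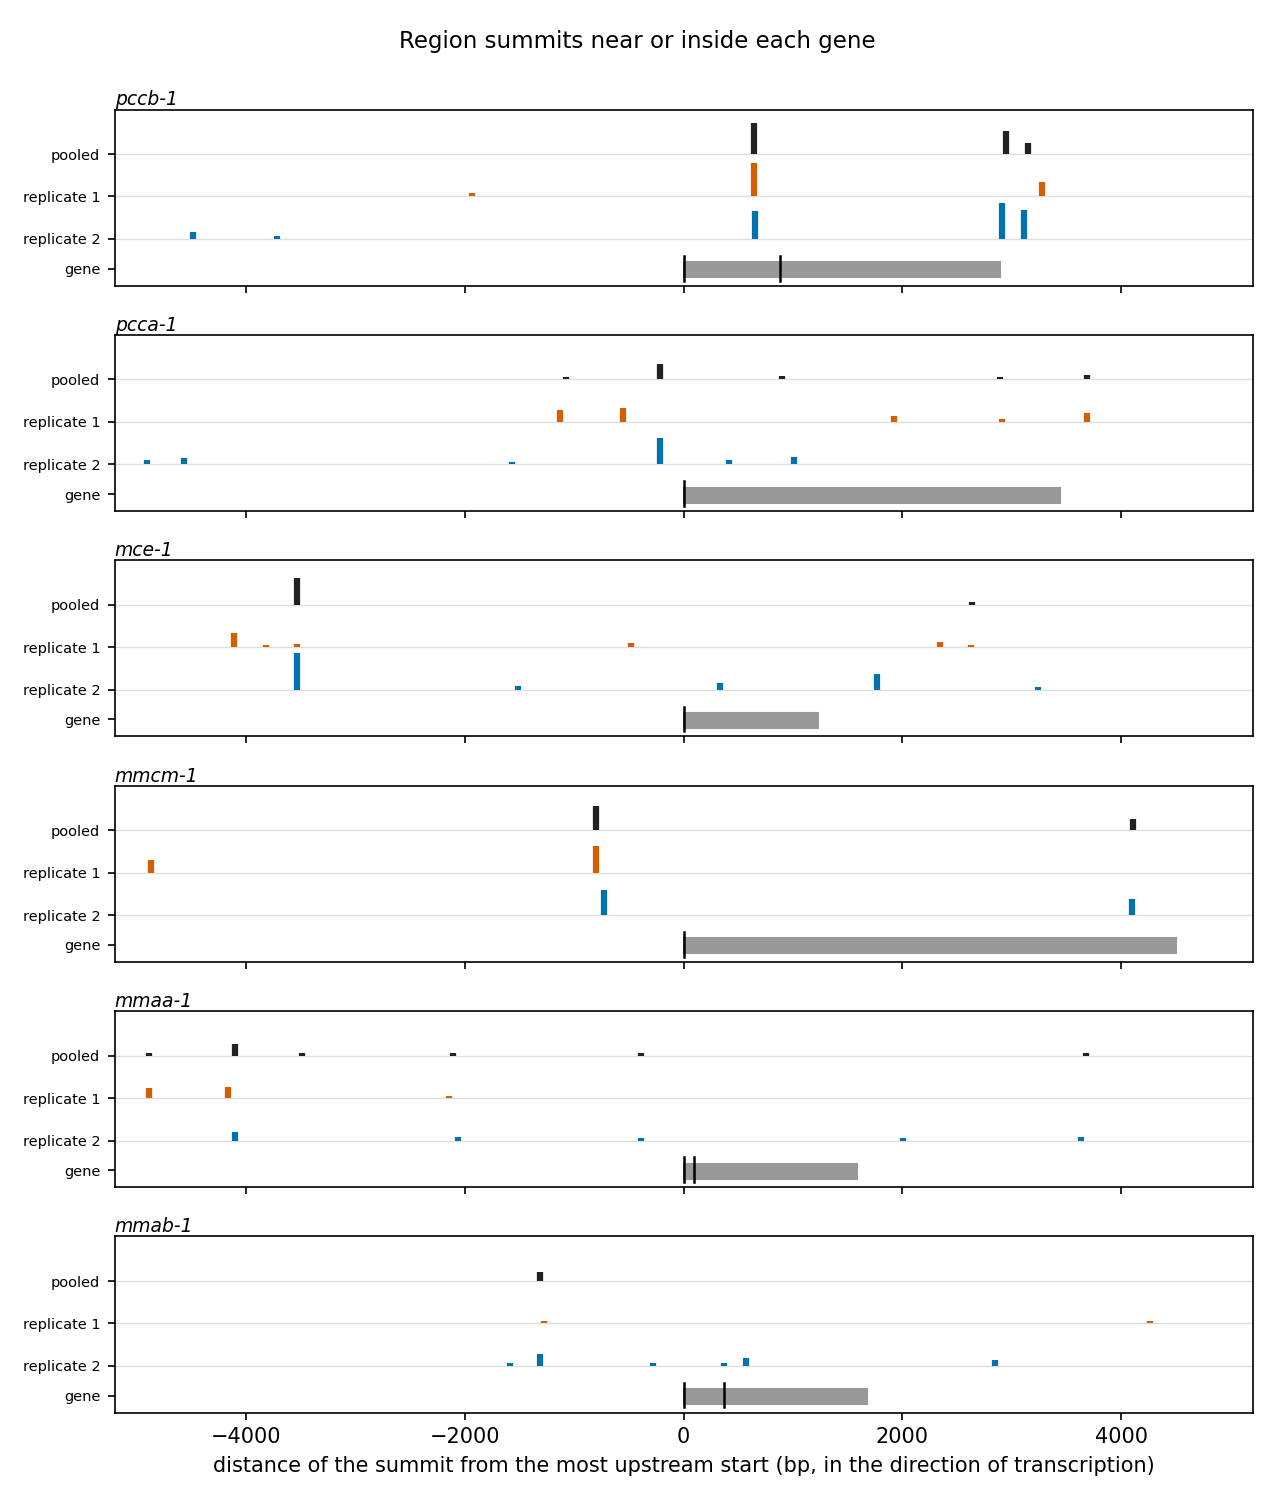
Position of every region summit near or inside each gene, in bp from its most upstream start in the direction of transcription, for the pooled, replicate 1 and replicate 2 lists. A taller bar is a stronger region (the height falls with the log of the rank, and the weakest ranks have a minimum height), the grey box is the gene, and black lines mark its first and last annotated starts. At pccb-1 all 3 lists have a tall bar between the starts, and at mmcm-1 all 3 have one upstream of the start.

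The epimerase gene mce-1 (WBGene00008415, I:7582106-7583333, plus strand) had the second strongest pooled region of the 6 genes, but far from its start. That region, I:7578363-7578786, had rank 1076 and a signal of 48.2, just under the lowest signal of the optimal list. Its −log10 q of 3.43 equals that of every optimal region, but 1335 pooled regions shared this value, the highest of the list. Its summit lies 3531 bp upstream of mce-1, where the 3′ UTRs of the convergent genes D2030.2 and D2030.3 overlap. The nearest start is that of D2030.3, 2258 bp away, and 4 protein-coding genes fall under the rule at this summit. The replicates differed widely here, with rank 14694 and a signal of 9.27 in replicate 1 and rank 457 and a signal of 37.5 in replicate 2, although their summits lay 3 bp and 4 bp from the pooled one.

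The larger of these ranks was 32.2 times the smaller. Among the 197 pooled regions of like rank that were found in both replicates (the 100 ranked above and the 100 below were examined), the median ratio was 2.5, and 4 (2.03%) had a ratio at least as large. The strongest replicate 1 region near mce-1 was another one, I:7577787-7578206, with rank 5047. Close to the mce-1 start the regions were weak, and each was seen in 1 replicate. Replicate 1 had one of rank 13901 with its summit 485 bp upstream, and replicate 2 had one of rank 11159 in an intron, 330 bp downstream of the start. The nearest optimal summit of mce-1 lay 6584 bp upstream, outside the 5 kb limit, in an intron of D2030.2 with rank 480.

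The mutase gene mmcm-1 (WBGene00014202, III:3903185-3907687, minus strand) had the most even of the 4 regions with a q-value of at most 0.05. Its strongest pooled region, III:3908279-3908702, had rank 1431, a signal of 43.4 and a −log10 q of 2.98, below the optimal list. It had rank 1354 and a signal of 23.7 in replicate 1, and rank 1650 and a signal of 23.3 in replicate 2, with summits 2 bp and 73 bp from the pooled one. The larger rank was 1.22 times the smaller, and 90.5% of the 199 regions of like rank found in both replicates were at least as unequal. The summit lies 804 bp upstream of the start, in the intergenic stretch between mmcm-1 and pat-3, which encodes a beta integrin and ends 440 bp from it.

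No other protein-coding gene had this summit near or inside it, which among the strongest regions of the 6 genes was the case for mmcm-1 alone. A second pooled region, III:3903371-3903794, lies in an mmcm-1 intron 4104 bp downstream of the start, with rank 5396. It was found in replicate 2, at rank 4178, but not in replicate 1, and the nearest start is that of tir-1. The nearest optimal summit of mmcm-1 lay 40104 bp downstream and was the strongest of the whole list, 271 bp from a start of the ribosomal protein gene rpl-3.

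The last pair of genes serves the cofactor: the human homologue of mmab-1 makes adenosylcobalamin, and that of mmaa-1 is a GTPase that loads it onto the mutase and protects the enzyme. At mmaa-1 (WBGene00020169, II:7099583-7101165, minus strand) the strongest pooled region, II:7105056-7105479, had rank 5258 and a signal of 25.2. It had rank 6608 in replicate 1 and rank 9239 in replicate 2. Its summit is 4103 bp upstream of mmaa-1, between farl-11 and the ribosomal protein gene rpl-33, and 233 bp from the start of farl-11. The region closest to mmaa-1, with a summit 386 bp upstream in a coding exon of farl-11, had rank 14067 and was found in replicate 2 only, at rank 20479. Of the 6 pooled regions of mmaa-1, 1 (rank 13514) overlapped a region of neither replicate.

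At mmab-1 (WBGene00016144, III:4920442-4922114, minus strand) the pooled list held 1 region, III:4923216-4923639, with rank 7080 and a signal of 22.3. The summit is 1314 bp upstream of the first start, in a coding exon of set-2, a histone H3 lysine methyltransferase gene. It had rank 19964 and a signal of 7.96 in replicate 1, near the bottom of that list, and rank 6616 and a signal of 13.6 in replicate 2. Closer regions were in replicate 2 only, with ranks 9927 in an exon, 17034 in the 5′ UTR and 16577 at 281 bp upstream. Both cofactor genes were thus covered by weak regions, with q-values above 0.05 in all 3 lists.

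**Figure D3:**
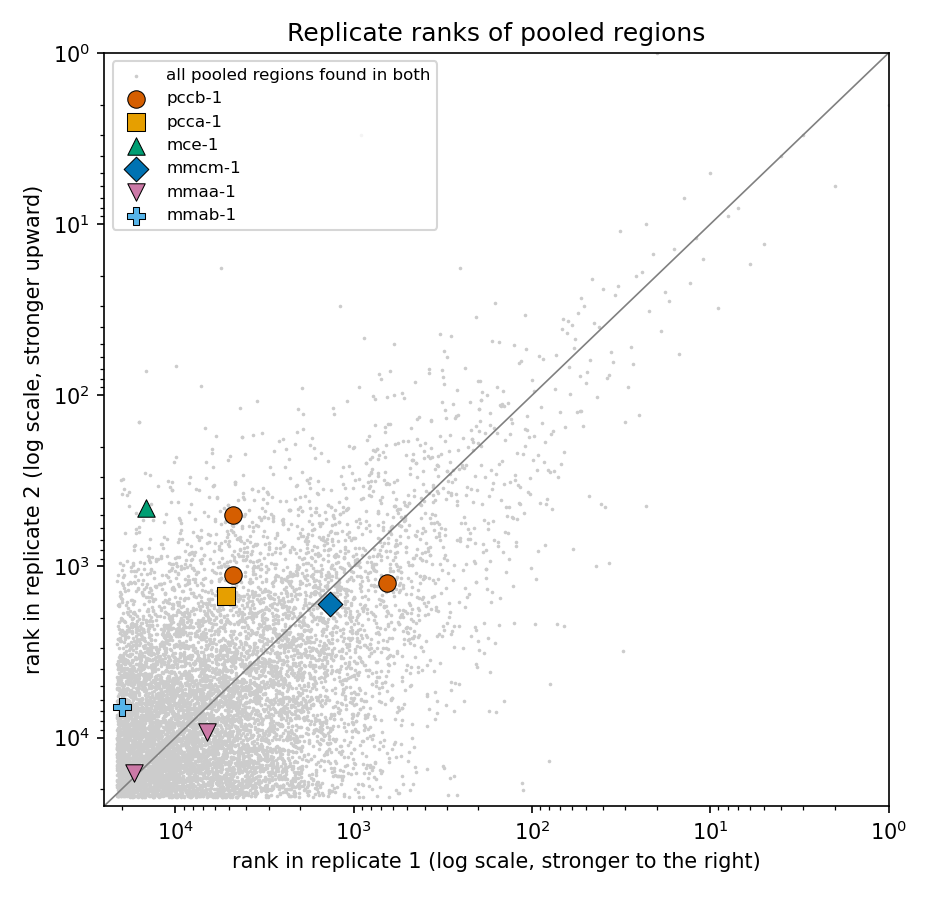
Rank in replicate 1 (horizontal axis) and rank in replicate 2 (vertical axis), on log scales with stronger regions toward the right and the top, for the 9889 pooled regions found in both replicates (grey) and the 9 of them that belong to the 6 genes (coloured symbols); the line marks equal ranks. The mmcm-1 symbol lies close to the line, and the mce-1 symbol lies far above it, with rank 457 in replicate 2 and 14694 in replicate 1.

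Over all 6 genes there were 19 pooled, 21 replicate 1 and 29 replicate 2 regions, with 1 to 6 pooled regions a gene. Of the 19 pooled regions, 9 overlapped a region of both replicates by at least 1 bp, 5 of replicate 1 only, 4 of replicate 2 only and 1 of neither. In the whole pooled list 56.7% overlapped both. All 4 regions of the 6 genes with a q-value of at most 0.05 overlapped both replicates by at least 1 bp. The same held for 97.4% of such regions in the whole list, so the regions that missed a replicate were weak ones. An overlap of 1 bp is a loose match. The replicate 1 summit lay 332 bp away at pccb-1 rank 1715, and the replicate 1 match of mce-1 rank 1076 had a −log10 q of 0.12. At pccb-1 rank 701 and mmcm-1 rank 1431 the replicate summits lay at most 73 bp away. The median ratio of the replicate ranks was 3.02 over the 9 regions (1.07 to 32.2), against 2.0 over the 9889 pooled regions in both. The ratio varies with rank, and the medians over the regions of like rank to each of the 9 lay between 1.78 and 2.97.

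The order of the 6 genes depended on the replicate. The strongest region of pccb-1 had rank 648 in replicate 1, in the intron, and rank 500 in replicate 2, past the 3′ end. That of mmcm-1 was the same region in both, with ranks 1354 and 1650. Both genes thus had strong regions in either list, but at pccb-1 these were different regions. In replicate 2, mce-1 had the strongest region of the 6, at rank 457, while in replicate 1 it was close to pcca-1, at rank 5047 against 5199. The median of the 6 best ranks was 2556.5 in the pooled list, 5123 in replicate 1 and 1566 in replicate 2. Over all genes with a region these medians were 5567, 6444 and 6700.

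Set among all protein-coding genes, 6.69% had a pooled region at least as strong as that of pccb-1. The shares were 9.91% for mce-1, 12.6% for mmcm-1, 25.9% for pcca-1, 33.6% for mmaa-1 and 40.7% for mmab-1. In replicate 1 the share was 33.7% for mce-1 and 71.4% for mmab-1, against 4.48% and 39.3% in replicate 2. At both genes the strongest region differed between the replicates. For mmab-1 in replicate 1 it had rank 17117 and lay 3897 bp downstream of the nearest mmab-1 start, in an intron of rpb-8. The pccb-1 share was 6.5% in replicate 1, for the intronic region, and 4.87% in replicate 2, for the region past its 3′ end.

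**Figure D4:**
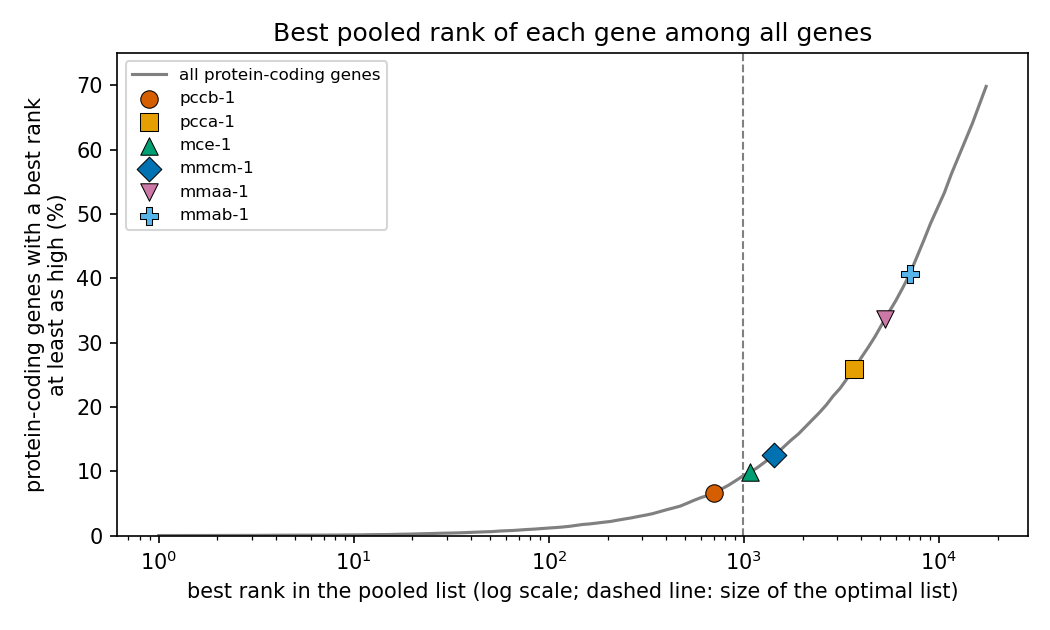
Share of all 19973 protein-coding genes whose strongest pooled region has at least the given rank (grey line; log scale, rank 1 at the left), with the 6 genes as symbols and a dashed line at the size of the optimal list. Only pccb-1 lies left of the dashed line, and mmaa-1 and mmab-1 lie where 33.6% and 40.7% of all genes had a region at least as strong.

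Of 558 genes compared, the 3 whose optimal promoter region was closest to that of pccb-1 in its ranks in the 2 replicates were Y71F9AL.9, rpl-1 and T28B11.1. Likeness is the sum of the absolute differences in log10 rank over the 2 replicates, where 0 is identical. Y71F9AL.9 and the ribosomal protein gene rpl-1 share a region with ranks 695 and 1253, at a distance of 0.033 from pccb-1, and T28B11.1 had ranks 674 and 1156, at 0.05.

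Other genes of propionate and B12 metabolism, listed with earlier results of these data known, were read by the same rule. An optimal summit lay near or inside 1 of the 6 genes of the B12-dependent route, 2 of 5 shunt genes, 3 of 5 genes of B12 handling and methionine synthesis and 0 of 4 succinyl-CoA ligase genes, against 9.31% of all protein-coding genes. The shunt genes were hphd-1, a hydroxyacid-oxoacid transhydrogenase with a summit 25 bp from its start at rank 164, and hach-1, a hydrolase with one 317 bp from its start at rank 563. The pccb-1 region, at rank 701, was weaker than both. The genes of B12 handling and methionine synthesis were metr-1 (methionine synthase), mtrr-1 (its reductase) and cblc-1 (the MMACHC homologue, which processes cobalamin).

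Optimal ranks were 705 at metr-1, with a summit 1664 bp from its start, 597 at mtrr-1, 2938 bp away, and 943 at cblc-1, 685 bp away. Both hach-1 and mtrr-1 had 2 optimal regions, and the stronger of each is the one described. The metr-1 region and the pccb-1 region had the same signal to 3 digits, 56.2. The start nearest to the summit was the gene's own at pccb-1, hphd-1 and mtrr-1, and that of another gene at hach-1, metr-1 and cblc-1. Counted by a pooled region with a q-value of at most 0.05, 3 of the 6 genes of the B12-dependent route stood beside 4 of 5 shunt genes, 5 of 5 genes of B12 handling and methionine synthesis and 2 of 4 succinyl-CoA ligase genes, against 23.1% of all protein-coding genes. The differences between these short lists were not tested.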

How the data were processed

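The authors' deposited ce11 lists, in narrowPeak format per the descriptions deposited with the files, gave each region a start, an end, a summit, a signal value and a −log10 q-value. The authors called regions on each replicate and on both pooled, and thresholded the optimal list by the irreproducible discovery rate; no source used here names the aligner, caller, versions or thresholds. The signal served only for ranks within a list. No read counts are given, so depth per sample, and the precision it gives, is unknown. The ce10 lists were not used here.

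Positions are 1-based, genes from Ensembl release 115, and sequence from RefSeq's WBcel235. A region belonged to every gene that met the distance rule, and replicate regions were matched by at least 1 bp and the closest summit. The 2 repeated pooled intervals have different summits and were both kept. Assignment was tested on simulated data. Python with pandas 2.3.3, numpy 2.4.6 and matplotlib 3.10.9 was used. Genes named are the 6, the gene with the start nearest to each strongest region, the 3 most like each gene with an optimal promoter summit, and pathway genes with an optimal summit; neighbouring genes were added to describe positions. Members and lists were chosen with earlier results of these data known. Alternatives changed the distance, window, start, overlap, list size and replicate.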

Additional observations from a re-analysis of the deposited data

How the results depend on the processing

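The count of 1 gene with an optimal region was 1 at 1 kb (3.84% of all genes) and 2 kb (5.1%), 2 at 10 kb (mce-1 added; 15.6%) and 0 with the stronger 50% of the optimal regions (4.92%). With the strongest regions of a single replicate it was 1 to 2, the higher value without replicate 1, where mce-1 was added (8.97%; 9.34% without replicate 2). The promoter window count was 0 to 1 with a single replicate, 0 without replicate 1 (2.71% of all genes; 2.82% without replicate 2), where the intronic region of pccb-1 had rank 1246. The count among the strongest regions of both replicates was 0 at 1 kb (2.23% of all genes), 0 at 2 kb (3.06%), 2 at 10 kb (10.3%), 0 when a summit counted only for the nearest start (2.36%), 2 with 2 times as many regions (mmcm-1 added; 10.6%), 0 with 0.5 times as many (3.17%) and 0 when the same region was required (5.23%). The median best rank was 1566 without replicate 1 and 5123 without replicate 2. At 2 kb, or by the nearest start alone, mce-1 had no pooled region and the best rank of mmaa-1 was 14067. Restricting replicate agreement, by an overlap of at least 1 bp, to q-values of at most 0.05, chosen after seeing the data, gave 4 of 4 regions (97.4% of all such pooled regions). The wider limits add regions by construction; the cause of the replicate differences was not tested. The other 30 recomputed summary values stayed within 1.5 times the main value, or within the replicate spread for median ranks. That spread is the standard deviation of the 2 single-replicate medians, so it cannot judge those medians, and 1566 is among the 30. The 30 include falls from 6 to 4 genes in the pooled count at 1 kb (42.0% of all genes). The both-replicate count fell likewise at 1 kb (35.4%) and by the nearest start (35.0%). For best ranks of single genes, 15 recomputed values stayed within the replicate spread and 7 did not. No paired analysis was possible because there was 1 group. Unknown depth, an unstated signal scale and 2 replicates limit all ranks.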
